A study of Homo sapiens with 6 samples.

Results

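Chromosomes 4, 13 and 18 carried fewer protein-coding genes per Mb than any other autosome compared here, and all their HindIII fragments with at least 1 read in a deposited 4C-seq library were taken. They numbered 12852 on chr4, 5430 on chr13 and 4813 on chr18, together 23095 of the 206896 fragments listed in any of 6 libraries. RefSeq (GRCh38.p14) counts of protein-coding genes, divided by the length over which each chromosome had listed fragments, gave 3.46 genes per Mb on chr18, 3.52 on chr13 and 4.03 on chr4. The next lowest of the 21 autosomes other than chr5 was chr8, at 4.89. The label of gene-poor chromosomes therefore fitted this count.

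All libraries were made from K562 cells, an established line of human chronic myeloid leukaemia. 4C-seq cuts crosslinked chromatin (here with HindIII, then DpnII), ligates what lay together, and reads out by PCR and sequencing the partners of a single bait, the viewpoint. That bait was FGF18 on chr5, the gene of a secreted fibroblast growth factor. The 3 groups of 2 libraries were cells with an empty vector (EV, also labelled untreated), cells lacking silencer 1 (S1KO) and cells lacking silencers 1 and 2 (DKO), the removals made by CRISPR excision, and the comparisons ask where contacts of FGF18 differ once these elements are gone. The labels give no further genotype and do not say whether each line was a clone or a pool, so the removal of a silencer and the history of a line cannot be told apart. The design text calls the 2 libraries of a group biological replicates but names no separate cultures. The p-values below therefore speak only to the scatter among these libraries, which may be technical.

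Chromosomes fill separate territories in the interphase nucleus. Contacts between chromosomes are rare and spread thinly, and gene-poor chromosomes, chr18 above all, have been known to lie towards the nuclear edge, whereas gene-rich ones such as chr19 lie towards the centre. A 4C viewpoint therefore samples other chromosomes as scattered single ligations, and the number of fragments met at least once is a common measure there, since the reads on each depend on amplification. K562 cells are aneuploid. The amount of DNA per region was not measured in these libraries, so more frequent contact and more copies of a region cannot be told apart in any level given here.

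The libraries held 708503 and 1919737 reads in EV, 1270579 and 1238383 in S1KO, and 1765929 and 1300415 in DKO. Outside chr5 they covered 39928 and 42352 fragments in EV, 41585 and 35317 in S1KO, and 34182 and 29847 in DKO. Chromosomes 4, 13 and 18 together took 12.6% (EV replicate 1) and 12.3% (EV replicate 2) of these covered fragments, but 11.3% and 11.5% in S1KO. DKO took 12.2% and 12.5%. Both S1KO libraries lay below the other 4, and EV and DKO overlapped. In what follows a level is the number of covered fragments per Mb, as a share of all covered fragments outside chr5, divided by the mean of the same value over the 18 autosomes other than chr4, chr5, chr13 and chr18 in that library. A level of 1 is thus the mean of those autosomes.

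Of the 3 chromosomes, chr13 was met by FGF18 less often than the mean autosome in every library. Its levels were 0.853 and 0.792 in EV, 0.825 and 0.841 in S1KO, and 0.806 and 0.885 in DKO, a mean of 0.834 ± 0.034 (SD, n = 6 libraries), which ranked 18 of 21 from the highest. All 6 libraries lay below 1 and the 3 groups overlapped. The exact two-sided sign-flip test over libraries gave p = 0.03125, the smallest it can give with 6 libraries, and a Benjamini-Hochberg adjusted p of 0.0386 over 21 autosomes. The same test put 38.1% of the 21 autosomes below the mean and 81.0% off it in either direction, so the place of chr13 was a common one. Chr13 carries BRCA2, a DNA repair gene, and RB1, the retinoblastoma tumour suppressor.

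Chr18 had levels of 0.934 and 1.01 in EV, 0.865 and 0.886 in S1KO, and 0.777 and 0.835 in DKO. The 3 groups did not overlap: both EV libraries were the highest, both S1KO libraries came next and both DKO libraries were the lowest. The mean was 0.884 ± 0.080 (SD, n = 6), rank 14 of 21, and 5 of 6 libraries lay below 1. The exact sign-flip test left chr18 short of the threshold of 0.05 (p = 0.0625, adjusted p = 0.0729). A separation of the groups was not particular to chr18. On chr14 they were ordered without overlap in the other direction, with levels of 0.738 and 0.743 in EV, 0.784 and 0.781 in S1KO, and 0.824 and 0.871 in DKO.

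Chr4 stood close to the mean autosome, with levels of 1.07 and 0.976 in EV, 0.858 and 0.876 in S1KO, and 1.03 and 1.06 in DKO. The 2 S1KO libraries were the lowest of the 6 and did not overlap either other group, while EV and DKO overlapped. Its mean of 0.977 ± 0.091 (SD, n = 6) ranked 12 of 21, with 3 of 6 libraries below 1 (exact sign-flip adjusted p = 0.525). On chr8 both S1KO libraries were also the lowest, by a small margin, at 0.9725 and 0.9682 against 0.9733 and 1.054 in DKO and 1.099 and 1.088 in EV.

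By this measure, few genes per Mb did not go with a low level across chromosomes. Chr19 and chr17, the most gene-dense autosomes, also had low levels, 0.741 ± 0.059 and 0.835 ± 0.034 (SD, n = 6), next to the 0.834 of chr13. The next in gene density, chr22 and chr11, had 0.930 ± 0.056 and 1.09 ± 0.038 (SD, n = 6). Over the 21 autosomes, which share the same libraries, gene density and mean level had a Spearman coefficient of -0.078 and a Pearson coefficient of -0.31. The median length of the listed fragments, a measure of how densely HindIII sites lie, had a Spearman coefficient of -0.46 with the level, so autosomes with longer fragments tended to have fewer covered fragments per Mb. Gene density and median fragment length themselves had a Spearman coefficient of 0.68. Their relations to the level therefore cannot be told apart here. The listed fragments had a median length of 2162.5 bases on chr4, 2193 on chr18 and 2345 on chr13. The first 2 were the shortest medians of the 21 autosomes. When the length of covered fragments was summed in place of their number, with each fragment capped at 50 kb, all 3 chromosomes lay further below 1, at levels of 0.841 for chr4, 0.743 for chr13 and 0.793 for chr18, each in 6 of 6 libraries (exact sign-flip adjusted p = 0.0469 for each). The cap was chosen after the data were seen. With 6 of 6 libraries on 1 side the test gives its smallest p. With numbers of fragments it called 81.0% of the 21 autosomes in either direction, so passing it was common and not particular to these chromosomes. Without it the levels were 0.794 for chr4, 0.701 for chr13 (exact sign-flip adjusted p = 0.0547 for both, 6 of 6 libraries below 1) and 1.0008 for chr18 (exact sign-flip adjusted p = 0.794, 4 of 6 libraries below 1). Over all alternatives the adjusted p ranged from 0.0469 to 1.00 for chr4, from 0.0386 to 0.0772 for chr13 and from 0.0410 to 0.794 for chr18.

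**Figure D1:**
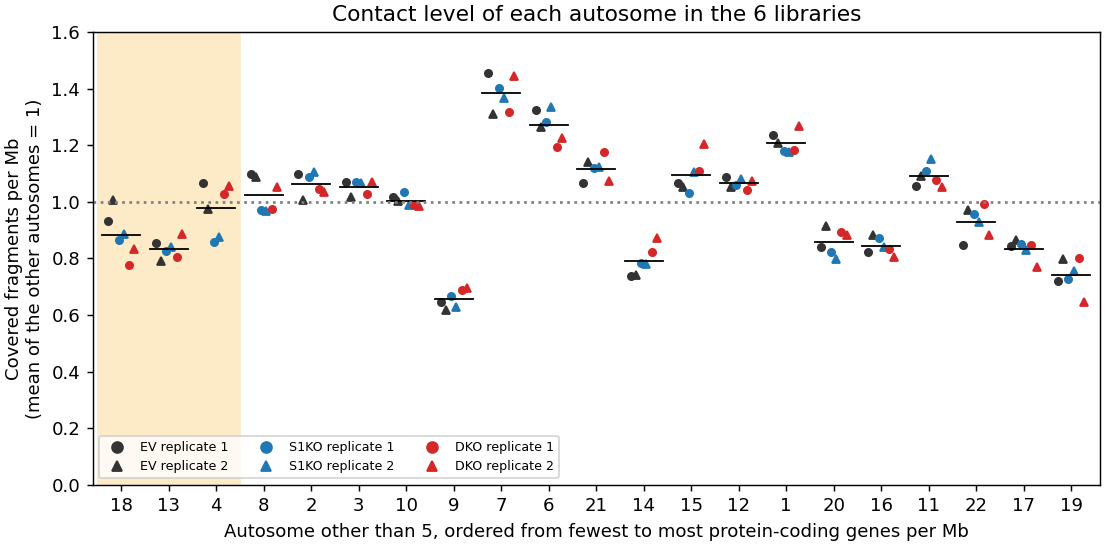
Contact level (covered fragments per Mb as a share of those outside chr5, divided by the mean of the 18 other autosomes) of each autosome but chr5 in the 6 libraries, ordered from fewest to most protein-coding genes per Mb; points are libraries, bars are means, and the shaded columns are chr18, chr13 and chr4. Chr13 lies below 1 in all 6 libraries, chr4 is spread from 0.858 to 1.07 with both S1KO libraries lowest, and chr7 (1.38) and chr9 (0.658) are the highest and lowest autosomes by mean.

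The plot of autosome levels shows that chr4 and chr18 had wider spreads between libraries than any other autosome, with SDs of 0.091 and 0.080. The groups were therefore compared with edgeR's quasi-likelihood test on the number of covered fragments per chromosome, with all 6 libraries and 22 chromosomes (21 autosomes and chrX) in 1 fit.

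On chr4 the EV libraries covered 2871 and 2858 fragments, the S1KO libraries 2475 and 2135 and the DKO libraries 2453 and 2144. As a share of covered fragments outside chr5 these were 7.19% and 6.75% in EV, 5.95% and 6.05% in S1KO, and 7.18% and 7.18% in DKO. S1KO was thus lower than both other groups. The share fell in S1KO against EV, with a log2 difference of -0.22 (SE 0.034, edgeR adjusted p = 4.17e-07), where 9.09% of 22 chromosomes were called lower. It was higher in DKO than in S1KO, with a log2 difference of 0.26 (SE 0.035, edgeR adjusted p = 6.19e-09), where 4.55% of 22 chromosomes were called higher. DKO against EV gave 0.04 (edgeR adjusted p = 0.553). These comparisons share libraries, so the S1KO values enter both of the calls. Over the alternatives the adjusted p for S1KO against EV ranged from 2.03e-07 to 0.0502, the last with DESeq2, and for DKO against S1KO from 5.07e-09 to 0.0074.

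On chr18 the covered fragments numbered 1025 and 1205 in EV, 1018 and 882 in S1KO, and 756 and 691 in DKO, or 2.57% and 2.85%, 2.45% and 2.497%, and 2.21% and 2.32% of those outside chr5. These totals include the stretch from 20 to 40 Mb described below, which was chosen on earlier results of these libraries. It held 371 and 411 of the fragments in EV and 178 and 168 in DKO, so tests on the whole of chr18 are not independent of that choice. The share of chr18 fell in DKO against EV, with a log2 difference of -0.26 (SE 0.066, edgeR adjusted p = 0.0038), where 9.09% of 22 chromosomes were called lower. This call was lost without EV replicate 2 (log2 -0.18, edgeR adjusted p = 0.118), without DKO replicate 1 (log2 -0.23, edgeR adjusted p = 0.0914) and with DESeq2 (adjusted p = 0.0618), within a range of 0.0014 to 0.118 over the alternatives. S1KO against EV gave -0.13 (edgeR adjusted p = 0.163) and DKO against S1KO -0.13 (edgeR adjusted p = 0.222). Without EV replicate 1, S1KO against EV passed the threshold (log2 -0.20, edgeR adjusted p = 0.0374).

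Chr13 covered 1154 and 1166 fragments in EV, 1197 and 1032 in S1KO, and 966 and 903 in DKO. Its shares ran from 2.75% to 3.03% with the groups overlapping. The log2 differences were 0.04 for S1KO against EV, 0.05 for DKO against EV and 0.01 for DKO against S1KO, with standard errors of 0.053 to 0.055 (edgeR adjusted p = 0.782, 0.791 and 0.930). None of the 3 passed the threshold.

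Each chromosome was next cut into 5-Mb windows. Outside chr5, 547 such windows held at least 60 covered fragments over the 6 libraries and were tested, 39 of 39 on chr4, 19 of 21 on chr13 and 16 of 16 on chr18. The median level of the tested windows, each the mean of 6 libraries, was 0.969 on chr4, 0.809 on chr13 and 0.797 on chr18, against 1.08 over 442 windows of the other autosomes. Chr4 was the most even, from 0.621 to 1.26. Chr18 ran from 0.385 to 1.54 and chr13 from 0.511 to 2.30, the highest of all 547 windows. The low chromosome-wide levels of chr13 and chr18 were therefore averages over unlike stretches.

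Chr18 held 3 zones. The end before the centromere, from 0 to 15 Mb, had a high level in every library, 1.24 and 1.55 in EV, 1.35 and 1.24 in S1KO, and 1.23 and 1.36 in DKO. Its first window, chr18:1-5000000, was the highest of the chromosome at 1.54 ± 0.15, and chr18:5000001-10000000 came second at 1.37 ± 0.19 (SD, n = 6). This end carries TYMS, the thymidylate synthase gene, and SMCHD1, a chromatin protein of the inactive X chromosome. Summed over 0 to 15 Mb, the groups overlapped. At chr18:5000001-10000000 both DKO libraries lay below both EV and both S1KO libraries (log2 -0.30 and -0.23, edgeR adjusted p = 0.694 and 0.779). From 10 to 15 Mb both S1KO libraries lay below both EV and both DKO libraries. Each such separation of 2 groups was met in 19.6% to 20.8% of all 547 windows. The window at chr18:15000001-20000000 had the lowest level of the chromosome, 0.385 ± 0.062 (SD, n = 6), and included a single listed fragment of 3101692 bases, chr18:15409945-18511636, over the assembly's centromere gap.

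Beyond the centromere, from 20 to 40 Mb, the groups parted. The stretch was chosen because earlier results of these libraries had shown it, so its levels are a description and the tests on it are no independent support. The EV libraries covered 371 and 411 fragments there, the S1KO libraries 242 and 240 and the DKO libraries 178 and 168. As levels these were 1.32 and 1.34 in EV, 0.802 and 0.940 in S1KO, and 0.714 and 0.791 in DKO. Both EV libraries lay well above 1 and all 4 libraries without silencer 1 lay below it, with both DKO libraries below both S1KO libraries. The mean level in S1KO was 0.655 times that in EV, and in DKO 0.566 times. Genes of this stretch include CDH2 (N-cadherin), the desmoglein and desmocollin cluster of cell-junction cadherins, LAMA3 (a laminin chain) and TTR (the thyroxine carrier transthyretin).

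From 40 to 75 Mb, which carries SMAD4, TCF4 and the apoptosis inhibitor BCL2, the level was 0.696 and 0.693 in EV, 0.782 and 0.792 in S1KO, and 0.685 and 0.713 in DKO. S1KO was slightly above both other groups here, whereas between 20 and 40 Mb it lay below EV and above DKO. None of the 8 windows from 40 Mb to the end passed the threshold in any comparison (edgeR, with 1, 0 and 1 at unadjusted p under 0.05 in S1KO against EV, DKO against EV and DKO against S1KO). In 4 of the 8 both DKO libraries lay below both S1KO libraries, where 19.9% of all windows did. The lowest p of chr18 in DKO against S1KO was here, at chr18:70000001-75000000, with levels of 0.623 ± 0.003 and 0.843 ± 0.063 (SD, n = 2 each), a log2 difference of -0.45 and an edgeR adjusted p of 0.399. The lower of the 2 lowest windows of this zone, chr18:65000001-70000000, stood at 0.539 ± 0.078 (SD, n = 6).

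**Figure D2:**
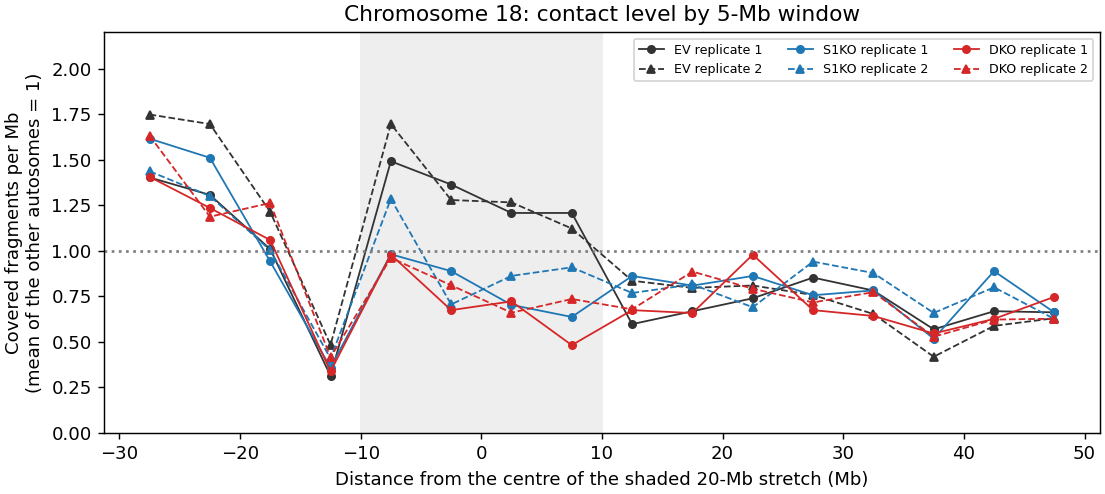
Contact level of each 5-Mb window of chr18 (1 = mean of the other autosomes) against distance in Mb from the centre of the stretch from 20 to 40 Mb (shaded), 1 line per library. Within the shaded stretch both EV libraries lie above the other 4 in each of its 4 windows, and in the windows next to it the EV lines cross those of the other groups.

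The 4 windows of the stretch behaved alike, as the plot of chr18 windows shows. At chr18:20000001-25000000 the levels were 1.49 and 1.70 in EV, 0.980 and 1.28 in S1KO, and 0.978 and 0.961 in DKO. At chr18:25000001-30000000 they were 1.36 and 1.28, 0.888 and 0.705, and 0.673 and 0.810. At chr18:30000001-35000000 they were 1.21 and 1.26, 0.702 and 0.862, and 0.722 and 0.659. At chr18:35000001-40000000 they were 1.21 and 1.12, 0.636 and 0.909, and 0.481 and 0.735. In each of the 4 windows both EV libraries lay above all 4 others, and S1KO and DKO overlapped in 3 of them. In the windows next to the stretch, chr18:15000001-20000000 and chr18:40000001-45000000, EV overlapped with both other groups, with log2 differences of -0.09 and -0.08 for DKO minus EV (edgeR adjusted p = 0.936 for both). From 40 to 45 Mb both DKO libraries lay below both S1KO libraries. The first of these windows is mostly the long centromere fragment, and in its last 1-Mb bin, from 19 to 20 Mb, the mean levels were 1.38 in EV, 1.22 in S1KO and 1.01 in DKO.

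In DKO against EV all 4 windows were lower. They were the only windows called on the 3 chromosomes, where 0.914% of 547 windows were called lower, and 7 of the 74 had an unadjusted p under 0.05, where 8.04% of all windows did. The log2 differences were -0.71 (SE 0.17, edgeR adjusted p = 0.0261) from 20 to 25 Mb, -0.83 (SE 0.18) from 25 to 30 Mb, -0.82 (SE 0.18) from 30 to 35 Mb and -0.94 (SE 0.21) from 35 to 40 Mb, the last 3 with an edgeR adjusted p of 0.0157. The direction was the same with every library left out in turn, and the smallest of these differences was -0.59. None passed with DESeq2, which called 0 of 547 windows (10 at unadjusted p under 0.05), or without DKO replicate 1, and 2 of the 4 passed without EV replicate 2 or without DKO replicate 2.

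In S1KO against EV the same 4 windows had log2 differences of -0.49, -0.69, -0.65 and -0.59. The one from 25 to 30 Mb passed the threshold (SE 0.16, edgeR adjusted p = 0.0487), where 0.366% of 547 windows were called lower. The others had edgeR adjusted p-values of 0.158, 0.0627 and 0.158. The call from 25 to 30 Mb was lost when any EV or S1KO library was left out (edgeR adjusted p = 0.0600 to 0.374) and with DESeq2, which called 0 of 547 windows (9 at unadjusted p under 0.05). With 10-Mb windows both windows of the stretch passed in S1KO against EV (log2 -0.58, edgeR adjusted p = 0.0127, and log2 -0.62, edgeR adjusted p = 0.0284). Both also passed in DKO against EV (log2 -0.76, edgeR adjusted p = 0.0019, and log2 -0.88, edgeR adjusted p = 0.0044). Of all 281 windows of that size, 10 were called in S1KO against EV and 5 in DKO against EV. The stretch was chosen on these libraries, so these calls are no independent support. DKO and S1KO did not differ beyond the spread in any of the 4 windows of 5 Mb (log2 -0.13 to -0.35, lowest edgeR adjusted p = 0.700).

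Setting the stretch against the rest of its own chromosome removes any shift of chr18 as a whole. Covered fragments per Mb from 20 to 40 Mb were 1.64 and 1.5003 times those in the rest of chr18 in EV, 0.904 and 1.08 times in S1KO, and 0.893 and 0.931 times in DKO. EV stood apart and S1KO and DKO overlapped. The log2 ratio was 0.67 lower in S1KO than in EV and 0.78 lower in DKO than in EV, each with p = 0.3333 in an exact two-sided permutation test, the smallest that 2 libraries against 2 can give. DKO minus S1KO was -0.12 (exact permutation p = 0.667) and turned to 0.01 without S1KO replicate 2. With the length of covered fragments summed in place of their number, the log2 differences were -0.20 for S1KO minus EV, -1.04 for DKO minus EV and -0.84 for DKO minus S1KO (exact permutation p = 1.00, 0.667 and 0.3333). The rest of chr18 then includes the centromere fragment of 3101692 bases, which was covered in EV replicate 1 (38 reads) and DKO replicate 1 (59 reads) and in none of the other 4 libraries.

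The fragments of the stretch were otherwise like those elsewhere. Their median reads per covered fragment were 11 and 38 in EV, 20.5 and 22 in S1KO, and 32 and 23.5 in DKO, against 10 and 34, 18 and 22, and 32 and 22 on the other 18 autosomes. The EV libraries therefore differed in how many fragments they met there and hardly in the reads on each. The median fragment length was 2140 bases. Of 1392 fragments, 198 (14.2%) were covered in at least 2 libraries, against 17.95% on the other autosomes. At 1-Mb resolution the EV level was spread over the stretch, with a mean of 2.02 from 23 to 24 Mb as its highest bin, where S1KO had 0.88 and DKO 1.04.

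The difference on chr4 was long and shallow. The first 60 Mb, which hold FGFR3 (a receptor of fibroblast growth factors), the huntingtin gene HTT and the receptor kinase genes KIT and PDGFRA, had levels of 0.960 and 0.925 in EV, 0.924 and 0.975 in S1KO, and 0.971 and 0.893 in DKO. The groups overlapped. From 60 to 190 Mb, a boundary set after the values were seen, the levels were 1.12 and 0.999 in EV, 0.830 and 0.825 in S1KO, and 1.06 and 1.13 in DKO. Both S1KO libraries were below the other 4, and EV and DKO overlapped. This larger part of the chromosome carries ALB (serum albumin), LEF1 (a Wnt pathway transcription factor) and FGF2 (a growth factor of the same family as FGF18).

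Of the 26 windows from 60 to 190 Mb, 25 had a lower estimate in S1KO than in EV, against 45.5% of all 547 windows. In 20 of the 26 both S1KO libraries were lower than either EV library, against 20.1% of all windows. The median log2 difference was -0.32, against 0.02 over all windows. Of the 12 windows of the first 60 Mb, 6 had a lower estimate and in 3 both S1KO libraries were lower, with a median of -0.01. The boundary at 60 Mb was set after these values were seen, so these counts describe the split and do not test it. Within this split, the low S1KO level of chr4 lay beyond 60 Mb and was spread over nearly all of it. No single window passed in the main fit: edgeR called 0 of 39 windows of chr4 (13 at unadjusted p under 0.05, where 10.1% of all windows had one). DESeq2 called 0 of the 74 windows of the 3 chromosomes in any comparison (3, 4 and 3 at unadjusted p under 0.05 in S1KO against EV, DKO against EV and DKO against S1KO). With shifted 5-Mb windows, chr4 from 62.5 to 67.5 Mb passed in S1KO against EV (log2 -0.67, edgeR adjusted p = 0.0454), where 9 of all 558 windows were called.

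In DKO against S1KO none of the 26 windows from 60 to 190 Mb had a lower estimate, where 52.8% of all windows did, and in 25 both DKO libraries lay above both S1KO libraries, against 19.6% of all 547 windows. The median log2 difference was 0.39, against -0.01 over all windows. S1KO enters this comparison and the one before, and the boundary at 60 Mb was set after the values were seen. The counts are therefore a description and not separate evidence. In DKO against EV, 12 of the 26 windows had a lower estimate, where 49.5% of all windows did, with a median of 0.01. Over chr4, chr13 and chr18 together, edgeR called 0 of 74 windows in DKO against S1KO, as it called 0% of all 547 (16 of the 74 had an unadjusted p under 0.05, where 9.87% of all windows had one; DESeq2 called 0, with 3).

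The window of chr4 with the lowest p in S1KO against EV was chr4:145000001-150000000, with levels of 1.38 and 1.15 in EV, 0.901 and 0.815 in S1KO, and 1.09 and 1.43 in DKO. Both S1KO libraries were the lowest, and the log2 difference was -0.53 (SE 0.17, edgeR adjusted p = 0.158). In both comparisons with DKO the lowest p on chr4 was at chr4:115000001-120000000, with levels of 0.909 and 0.796 in EV, 0.556 and 0.924 in S1KO, and 1.22 and 1.15 in DKO. Both DKO libraries were above all others there, with a log2 difference of 0.70 (SE 0.20, edgeR adjusted p = 0.356) from S1KO and 0.49 (SE 0.19, edgeR adjusted p = 0.445) from EV. The first of these passed with only the S1KO and DKO libraries in the fit (edgeR adjusted p = 0.0485) and without S1KO replicate 2 (log2 1.08, edgeR adjusted p = 0.0140).

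With 10-Mb windows, S1KO against EV passed on chr4 from 60 to 70 Mb (log2 -0.54, edgeR adjusted p = 0.0313) and from 80 to 90 Mb (log2 -0.41, edgeR adjusted p = 0.0318). These were 2 of 10 windows called among all 281 of that size. The highest 5-Mb windows of chr4 were chr4:185000001-190000000 at 1.26 ± 0.16, towards its end, and chr4:80000001-85000000 at 1.19 ± 0.16 (SD, n = 6). The lowest were chr4:160000001-165000000 at 0.621 ± 0.150 and chr4:50000001-55000000 at 0.624 ± 0.099 (SD, n = 6), the latter at the centromere.

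**Figure D3:**
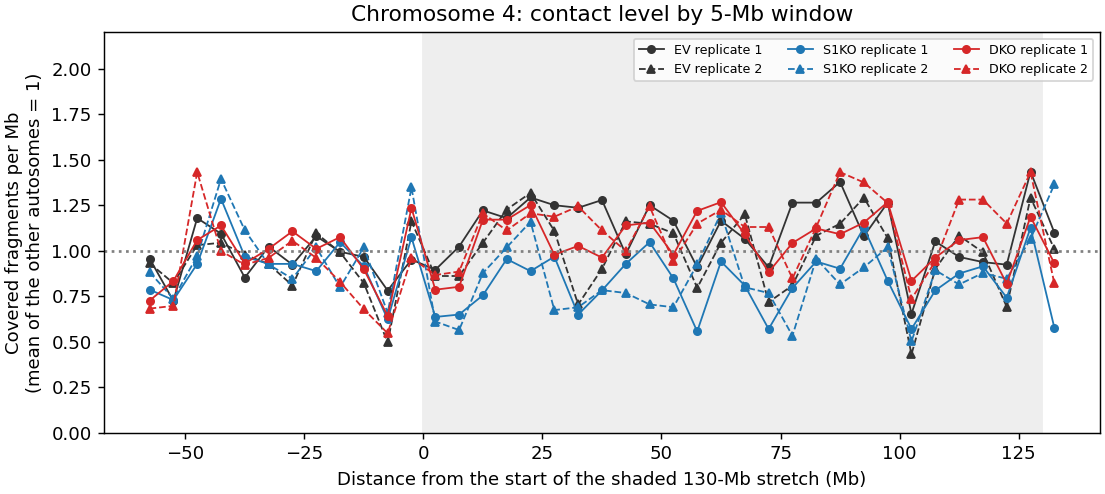
Contact level of each 5-Mb window of chr4 (1 = mean of the other autosomes) against distance in Mb from the start of the shaded stretch of 130 Mb, 1 line per library. In the shaded stretch the 2 S1KO lines (blue) run below most points of the other 4 libraries, and before it the lines of the 3 groups cross.

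The plot of chr4 windows shows both S1KO lines leaving the others at the start of the shaded stretch and staying low over most of it. DKO lay near EV in this stretch of chr4, and near S1KO in the stretch of chr18. Setting covered fragments per Mb beyond 60 Mb against those before it gave ratios of 1.16 and 1.08 in EV, 0.898 and 0.846 in S1KO, and 1.09 and 1.27 in DKO. The boundary was chosen on these values, so they are a description and no test of them is given.

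Chr13 was low along almost its whole length and had 1 sharp peak. From 20 to 90 Mb the level was 0.771 and 0.711 in EV, 0.754 and 0.780 in S1KO, and 0.722 and 0.755 in DKO, and beyond 95 Mb it lay between 0.725 and 0.909. Between these, at chr13:90000001-95000000, it was 2.49 and 2.00 in EV, 2.15 and 2.21 in S1KO, and 2.29 and 2.67 in DKO. All 6 libraries were high there, and the groups overlapped. The mean of 2.30 ± 0.24 (SD, n = 6) was the highest of the 547 windows, just above a window of chr22 at 2.29. The window was singled out after its values were seen. It carries MIR17HG, the host gene of the miR-17-92 cluster of growth-promoting microRNAs, and GPC5, which encodes a glypican, a cell-surface proteoglycan.

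The neighbouring window chr13:85000001-90000000 had the lowest level of the tested windows of the chromosome, 0.511 ± 0.109 (SD, n = 6) and stood next to the highest. The second lowest was chr13:55000001-60000000 at 0.628 ± 0.079, and the second highest chr13:75000001-80000000 reached only 0.873 ± 0.100 (SD, n = 6). Covered fragments per Mb in the peak window were 3.26 and 2.75 times those in the rest of chr13 in EV, 2.85 and 2.88 times in S1KO, and 3.16 and 3.399 times in DKO. The peak was thus present at a like height with and without the silencers. The log2 differences in this window were -0.02 for S1KO against EV, 0.16 for DKO against EV and 0.18 for DKO against S1KO, with standard errors of 0.15 to 0.16 (edgeR adjusted p = 0.997, 0.886 and 0.811).

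In bins of 250 kb, the peak was not even. Levels, as means of the 6 libraries, were 0.55 at chr13:90000001-90250000 and 1.06 in the next bin, then between 2.504 and 4.19 in each of the 8 bins from chr13:90500001-90750000 to chr13:92250001-92500000. The highest was chr13:91000001-91250000, with 83 covered fragments over the 6 libraries. The level dropped to 0.43 at chr13:92500001-92750000, where only 8 fragments were covered. It was 1.16 in the next bin, 4.03 at chr13:93000001-93250000, 1.95 in the bin after that, 0.65 at chr13:93500001-93750000 and 3.74 at chr13:93750001-94000000, and lay between 0.52 and 1.00 from there to 95 Mb. High and low bins thus alternated within the window, some of them side by side and others with bins of intermediate level between them.

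A larger share of the fragments of the peak was met repeatedly, as goes with its higher number of covered fragments. The window was singled out for that number, so the shares that follow partly restate its level and are no separate support. Of 584 fragments in the window, 240 (41.1%) were covered in at least 2 libraries, against 12.2% of the 4846 in the rest of chr13 and 17.95% on the other 18 autosomes. Of the 20 fragments of chr13 covered in at least 4 libraries, 16 lay in the window. One was chr13:91430395-91430964, with 0 and 47 reads in EV, 0 and 103 in S1KO, and 201 and 108 in DKO, covered in both DKO libraries and in 1 library of each other group. The median fragment length in the window, 2350 bases, was close to the 2345 of the rest of chr13.

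No window of chr13 passed the threshold in any comparison (edgeR, 19 windows, with 0, 0 and 1 at unadjusted p under 0.05 in S1KO against EV, DKO against EV and DKO against S1KO). The lowest p-values were at chr13:40000001-45000000 for S1KO against EV (log2 0.25, edgeR adjusted p = 0.846), at chr13:35000001-40000000 for DKO against EV (log2 0.36, edgeR adjusted p = 0.694) and at chr13:50000001-55000000 for DKO against S1KO (log2 -0.46, edgeR adjusted p = 0.399). The standard errors of these 3 differences were 0.18 to 0.20, so changes of that size in 1 window were not detectable at this depth.

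**Figure D4:**
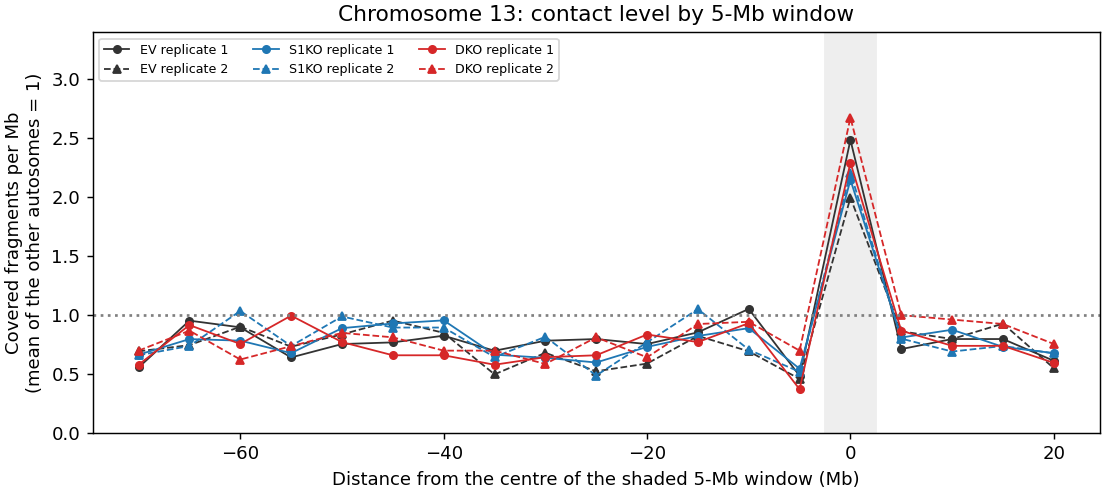
Contact level of each 5-Mb window of chr13 (1 = mean of the other autosomes) against distance in Mb from the centre of its highest window (shaded), 1 line per library. All 6 libraries peak in the shaded window, between 2.00 and 2.67, and lie near or below 1 in the windows around it.

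The plot of chr13 windows shows lines of all 3 groups crossing along the chromosome. Differences between groups by window, over the 3 chromosomes, fell into a few sets, which the plot of window differences sets side by side.

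**Figure D5:**
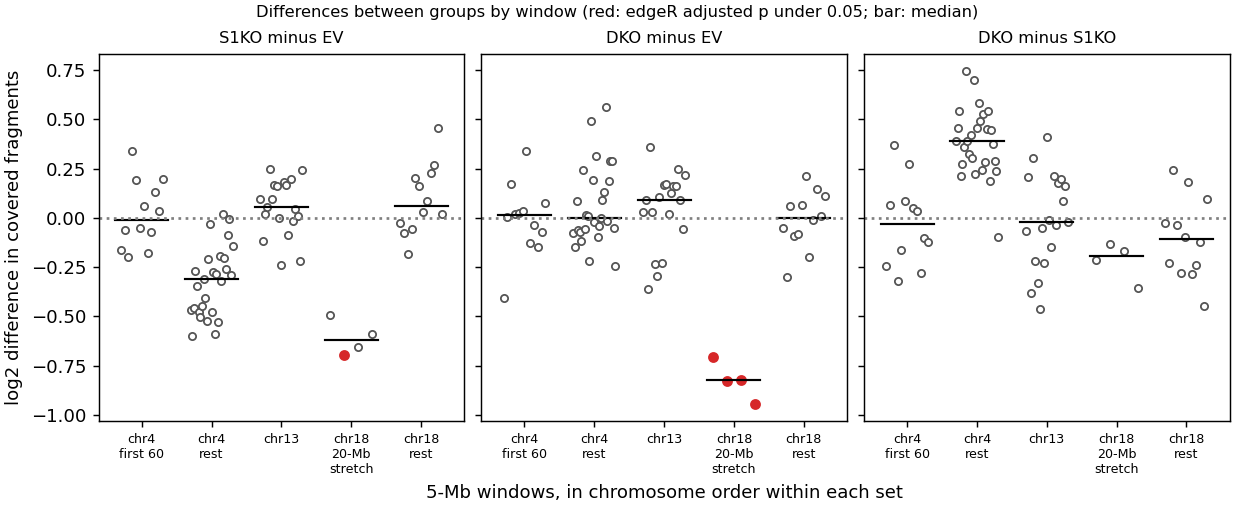
Log2 difference in covered fragments (edgeR) of each tested 5-Mb window in S1KO minus EV, DKO minus EV and DKO minus S1KO, for chr4 before and after 60 Mb, chr13, and chr18 from 20 to 40 Mb and elsewhere; points are windows, red where the adjusted p was under 0.05, and bars are medians. The chr18 stretch lies low in both comparisons with EV, and chr4 beyond 60 Mb lies low in S1KO minus EV and high in DKO minus S1KO.

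On single fragments the libraries had little in common. Of the 23095 fragments, 19705 were covered in 1 library alone and 3390 (14.7%) in at least 2, against 17.95% on the other 18 autosomes. None was covered in all 6 libraries and 1 in 5, chr4:123452741-123454154, with 6 and 43 reads in EV, 29 and 15 in S1KO, and 0 and 21 in DKO. Of the fragments one library covered on the 3 chromosomes, another library also covered between 4.89% and 8.05%. For pairs within a group these shares were 7.70% and 7.44% in EV, 5.67% and 6.57% in S1KO, and 5.87% and 6.55% in DKO. On the other 18 autosomes they were 8.95% and 8.41% in EV, 7.15% and 8.44% in S1KO, and 6.23% and 7.18% in DKO, so low sharing was general. A covered fragment was mostly a single event of 1 library, and only sums over windows could be compared.

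The authors' deposited table gives a q-value per fragment and library. At q under 0.05 it called 10 and 14 fragments of the 3 chromosomes in the EV replicates. The S1KO replicates had 3 and 4 in the authors' deposited table, and both DKO replicates had 0. On the other 18 autosomes the authors' deposited table called 39 and 81 in EV, 19 and 36 in S1KO, and 2 and 0 in DKO, so the fewer calls in DKO were not limited to these chromosomes. Per 1000 covered fragments the authors' deposited table thus called 1.98 and 2.68 on the 3 chromosomes in EV against 1.17 and 2.28 on the others, 0.640 and 0.988 against 0.537 and 1.202 in S1KO, and 0 and 0 against 0.069 and 0 in DKO. The 31 fragments called on chr4 (20), chr13 (6) and chr18 (5) were each called in 1 library. The lowest q-value in the authors' deposited table was 3.11e-08, for chr4:79986047-79987678, with 124 reads in EV replicate 1 and 0 in the other 5 libraries. Of the 6 on chr13, 4 lay in the peak window, and 1 of the 5 on chr18, chr18:25336355-25337896 with 77 reads in EV replicate 1 alone, lay between 20 and 40 Mb.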

How the data were processed

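The members, windows and stretches were chosen with earlier results of these data known. Each deposited file gives whole-number read counts per HindIII fragment, headed nReads in the file headers. Its p-value and q-value columns hold the authors' deposited values, and a deposited column headed RPMs, treated as a score of unclear scale, was not used. Bowtie2 2.2.5 and hg19 are named in the submitters' processing notes. The sources used here name no interaction caller or filter.

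A fragment counted as covered with at least 1 read and was placed by its midpoint. Amplified reads are not independent molecules. Numbers of covered fragments per chromosome and 5-Mb window entered the quasi-likelihood test of edgeR 4.0.16 (R 4.3.3, library size the covered fragments outside chr5, no TMM, Benjamini-Hochberg, threshold 0.05). Standard errors were derived from the log2 difference and its F statistic. Levels were compared by exact sign-flip tests and ratios by exact permutation tests (Python 3.11.15, numpy 2.4.6, pandas 2.3.3, scipy 1.17.1, matplotlib 3.10.9). The procedures were tested on simulated data.

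Windows named are those past the threshold without overlap of the groups, the lowest p of each chromosome and comparison, the 2 highest and 2 lowest levels of each chromosome, and chr18 from 15 to 45 Mb. Alternatives were other read minimums (2 and 10), lengths or reads in place of numbers, other reference means, TMM, DESeq2 1.42.0, a replicate block, fits of the 4 libraries compared, 10-Mb or shifted windows, no filter, and each library left out in turn. RefSeq GRCh38.p14 served only to count genes per chromosome. Chromosome Y was not analysed here.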

Additional observations from a re-analysis of the deposited data

How the results depend on the processing

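Of the comparisons of levels, chromosomes called and windows called, most alternative values kept their direction and side of the threshold. The chr4 level turned to 1.01 with reads and 1.001 without S1KO replicate 1, and passed at 0.841 with capped lengths. The chr13 level missed the threshold with uncapped lengths (0.701) and, at 0.824 to 0.842, without any 1 library, where 5 libraries cannot give an exact p below 0.0625. The chr18 level passed with reads (0.892), capped lengths (0.793), the median (0.859) or the mean without chr9 and chr22 (0.863) as reference, and 1-Mb bins that hold a fragment (0.863), and was 1.0008 with uncapped lengths.

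DESeq2 called 0 of the 3 chromosomes in S1KO against EV and in DKO against EV, where edgeR called 1 each, and 0 windows in every comparison. The cause was not tested. Leaving out a library leaves 1 in its group, and some calls were lost or gained in such fits, as given above. With any 1 library left out, the log2 difference of chr4 ran from -0.26 to -0.17 in S1KO against EV. It ran from 0.25 to 0.27 in DKO against S1KO, and that of chr18 from -0.33 to -0.18 in DKO against EV. For the 4 windows of the chr18 stretch it lay between -1.24 and -0.59 in DKO against EV. In S1KO against EV it lay between -0.89 and -0.30 there. Windows called in S1KO against EV numbered 2 with at least 2 reads, TMM, the 4 libraries alone or scaling to the other 18 autosomes. These 2 were chr18 from 25 to 30 Mb and from 30 to 35 Mb each time. With 10-Mb or shifted windows 4 were called. Calls over all windows rose as well, from 2 to 7 in each of the first 4 settings, 10 of 281 with 10-Mb and 9 of 558 with shifted windows. Those called in DKO against EV numbered 2 with 10-Mb windows, in which the chr18 stretch is only 2 windows. Those in DKO against S1KO numbered 2 with the 4 libraries alone. They were chr4 from 90 to 95 Mb (log2 0.75) and from 115 to 120 Mb (log2 0.70), and of all 547 windows 2 were called. Single 5-Mb windows have no value on the 10-Mb and shifted grids.

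The replicate numbers did not pair the libraries: deviations of replicates with the same number correlated at 0.0004, -0.069 and -0.061 over 547 windows. With the replicate number as a block, 0 windows passed in S1KO against EV (edgeR adjusted p = 0.133 for chr18 from 25 to 30 Mb) and 0 in DKO against EV (edgeR adjusted p = 0.0657 to 0.0795 for the 4 chr18 windows), and the calls on chr4 and chr18 as chromosomes were kept.

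Small differences changed sign. DKO against EV on chr4 was -0.0022 to 0.089 with an EV library left out. DKO against S1KO on chr13 was -0.0044 with at least 2 reads, -0.020 with at least 10, -0.00017 without S1KO replicate 1 and -0.037 to 0.062 with a DKO library left out. The log2 ratio of the stretches ran, with 1 library left out, from -0.043 to 0.18 on chr4 (DKO against EV), from -0.18 to 0.059 on chr13 (S1KO against EV) and from -0.25 to 0.012 on chr18 (DKO against S1KO). With 2 libraries a group, differences in a single window had standard errors near 0.2 on the log2 scale.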
